A study of Mus musculus with 6 samples.

Results

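The 38 genes described here make the proteins that copy DNA in S phase and supply its building blocks. They form a list chosen by function, with earlier results of these data known. For each the brightest probe set that the platform annotation assigns to a single gene was taken, by its mean over all 6 arrays. All 38 were measured, out of 18193 genes with such a probe set, and the brightest probe set of each lay above 6.02, the median level of all probe sets. The 38 genes had 85 probe sets in all, and 9 genes had only 1.

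RNA came from back skin of mouse embryos at E15.5 on a C57BL6/129 mixed background, measured on Affymetrix MOE430 2.0 arrays. There were 3 samples of genotype Fzd6 +/- (control) and 3 of genotype Fzd6 -/- (knockout), so control skin also carried 1 mutant allele of Fzd6, the gene of the receptor Frizzled 6, which orients hair follicles. The labels name the samples biological replicates, and the sources used here do not say whether each was 1 embryo or a pool. Values are RMA summaries read as log2, on which a step of 1 is a doubling, and a level of 1 gene is not set against that of another because probes differ in brightness.

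Chromosomes are copied once per cell cycle from origins. In G1 the origin recognition complex (Orc subunits), Cdc6 and Cdt1 load a ring of Mcm2 to Mcm7 onto DNA; in S phase Cdc45, the GINS complex and Mcm10 turn that ring into a working helicase, and polymerases held by the clamp Pcna follow it. Most of these genes are transcribed under E2F factors at the passage from G1 to S phase, so their RNA marks dividing cells. In embryonic skin those include cells of the basal epidermis and the dermis.

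Some arrays stood apart in their makeup. Endothelial and pericyte markers lay, as a median deviation from each gene's mean over the 6 arrays, at −0.41, 0.43 and 0.26 in controls 1 to 3 and −0.66, 0.27 and 0.43 in knockouts 1 to 3. Col1a1, the main dermal collagen, was at 10.24, 12.04 and 11.58 in controls 1 to 3 and 9.94, 12.10 and 11.84 in knockouts 1 to 3. For this gene both number 1 arrays were far below the rest. Over the 9 fibroblast markers the median deviation was −0.12, 0.26 and 0.12 in controls 1 to 3 and −0.51, 0.17 and 0.15 in knockouts 1 to 3. Knockout 1 was the lowest array for 8 of these markers and control 1 for 0. All 8 markers of basal epidermis and all 9 of dermal fibroblasts were above the median level, and so were 9 of 9 skeletal muscle markers, of tissue beneath the skin. Knockout 2 was the lowest array for 8 of the 9 muscle markers, whose median deviation was −0.29, 0.39 and −0.086 in controls 1 to 3 and 0.17, −0.52 and 0.41 in knockouts 1 to 3; within number 2 all 9 were lower in the knockout, by a median of −0.98. The brightest Fzd6 probe set had means of 9.38 in control and 8.93 in knockout skin, with no overlap between groups, and the sources used here do not place it against the deletion. Of the dimmer Fzd6 probe sets, 1 had means of 6.13 in control and 5.46 in knockout skin, also with no overlap. The remaining one differed by −0.0097 (−0.21 to 0.19). The counts over the replication genes and the related lists are also given without the number 1 arrays.

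The promoters of the genes show a feature that the choice of members did not use. The window from 250 bases before to 50 after the start of transcription (RefSeq, GRCm38.p6) was found by symbol for 32 of the 38 genes and searched for E2F-type letters (TTTCCCGC, TTTCGCGC, TTTGCCGC or TTTGGCGC, on either strand). Some genes had several starts and so several windows, and a gene was counted if any of its windows held the letters. E2F-type letters occurred in 13 of the 32 genes, or 40.6%, against 3.81% of 14452 genes of the array with such a window. The CCAAT letters (either strand) occurred in 65.6% of the 32 and 42.0% of genes of the array, and TTTGAA, the letters of the CHR element of mitotic genes, in 12.5% and 15.7%. In the mitosis list used further below the order was the other way, with TTTGAA in 70.0% of 20 genes with a window and E2F-type letters in 5.0%. The E2F-type letters were not limited to the 38 genes. Among genes with a window in related lists, they occurred in 7 of 11 G1/S regulators (63.6%), 5 of 15 other fork genes (33.3%) and 3 of 10 chromatin assembly genes (30.0%). They also occurred in 4 of 14 other origin genes (28.6%), 1 of 9 checkpoint genes (11.1%) and 0 of 12 other nucleotide genes. A match of letters is a description and not a measured site. Shown are the windows of Mcm6 and Mcm3, which had 3 and 2 matches, and that of Tyms, which had none; Mcm6 and Tyms had the smallest p-values of the list and Mcm3 the smallest of the members whose groups overlapped. Capitals mark the E2F-type letters, and all 3 windows lie on the minus strand, at chr1:128359656-128359955, chr1:20820263-20820562 and chr5:30073576-30073875.
Mcm6: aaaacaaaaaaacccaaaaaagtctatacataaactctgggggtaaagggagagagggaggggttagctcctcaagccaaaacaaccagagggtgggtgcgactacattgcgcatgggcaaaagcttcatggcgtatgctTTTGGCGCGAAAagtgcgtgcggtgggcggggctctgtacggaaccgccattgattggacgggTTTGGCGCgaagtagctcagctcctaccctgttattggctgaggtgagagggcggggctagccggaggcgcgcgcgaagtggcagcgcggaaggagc
Mcm3: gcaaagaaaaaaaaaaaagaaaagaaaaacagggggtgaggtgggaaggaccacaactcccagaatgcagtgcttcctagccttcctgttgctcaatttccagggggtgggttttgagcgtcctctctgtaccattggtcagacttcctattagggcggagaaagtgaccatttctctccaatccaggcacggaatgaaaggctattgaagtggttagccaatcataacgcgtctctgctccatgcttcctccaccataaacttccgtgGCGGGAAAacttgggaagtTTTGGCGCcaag
Tyms: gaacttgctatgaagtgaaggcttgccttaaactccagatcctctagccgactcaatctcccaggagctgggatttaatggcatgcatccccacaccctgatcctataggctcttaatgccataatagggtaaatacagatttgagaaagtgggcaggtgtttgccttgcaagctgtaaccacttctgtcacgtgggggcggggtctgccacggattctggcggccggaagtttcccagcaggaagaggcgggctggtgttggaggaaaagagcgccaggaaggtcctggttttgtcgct
The Mcm6 matches began at −110, −106 and −47 relative to the start, the first pair overlapping in 1 run, and those of Mcm3 at 19 and 38. The median difference between genotypes was −0.12 over the 13 members with such letters and −0.096 over the 19 without. Lower values in the knockout were found in 10 of the 13 and in all 19 of the others.

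Whether replication genes differed between the genotypes was asked of each gene in turn and then of the list. In the knockout 35 of the 38 had lower values, by a median of −0.095 on the log2 scale, or −6.35%, and the differences ran from −0.25 (Mcm6) to 0.020 (Pold1). Over all 18193 genes 47.6% had lower values, with a median difference of 0.0070, and among the 11849 genes above the median level 56.2% did, with a median of −0.019. No member passed the test across all probe sets (limma adjusted p from 0.909 to 0.997), and neither did any of the 45037 probe sets (0%); a fit blocked on replicate number called 3, none of them of a member. At an unadjusted limma p under 0.05, 3 members had lower values (Mcm6, Tyms and Mcm4), or 7.89%, against 1.91% of all genes, and 0 had higher values, against 3.17%. Among genes above the median level these shares were 2.41% lower and 2.76% higher. The same 3 members were those whose 3 knockout values all lay below the 3 control values. That was again 7.89%, against 4.31% of all genes and 5.29% of those above the median level. No member lay wholly above, against 6.99% of all genes. For 27 of the 38 genes the difference was smaller than the SD of the 3 controls.

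**Figure D1:**
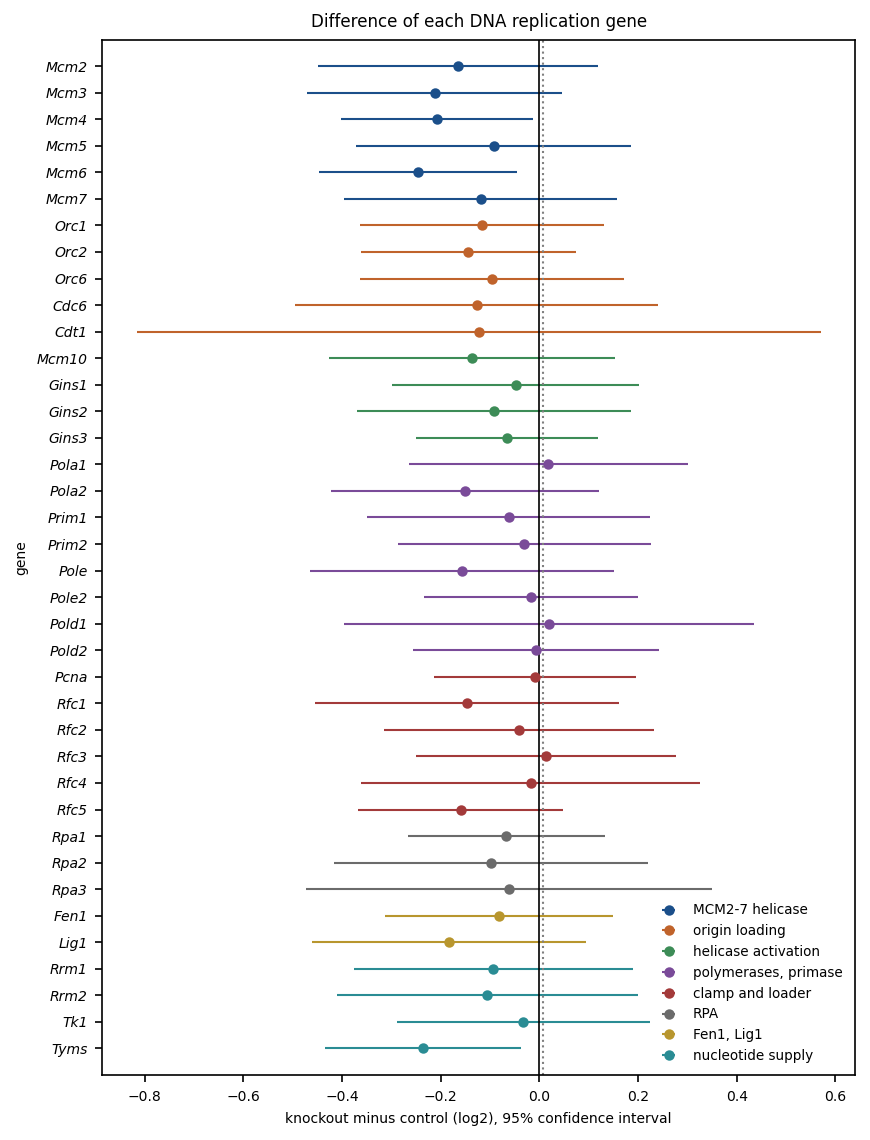
Difference between knockout and control (horizontal axis, log2) of each of the 38 genes (vertical axis, coloured by role), with bars for the limma 95% confidence interval and a dotted line at the median of all genes, 0.0070. The points of 35 genes lie left of 0, and only the bars of Mcm4, Mcm6 and Tyms end before 0.

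The 6 subunits of the replicative helicase, Mcm2 to Mcm7, all had lower values, by a median of −0.19, and held 2 of the 3 smallest p-values. Mcm6 was at 10.21, 10.31 and 10.15 in controls 1 to 3 and 9.88, 10.03 and 10.02 in knockouts 1 to 3. Every knockout value lay below every control, and the means were 10.22 ± 0.082 and 9.98 ± 0.082 (SD, n = 3), a difference of −0.25 (−0.45 to −0.045), with unadjusted p = 0.0227 and limma adjusted p = 0.909. An exact permutation test of these 6 values gave p = 0.1, the smallest that 3 against 3 allows (two-sided). Mcm4 likewise had no overlap, with 10.75, 10.77 and 10.64 (control) and 10.43, 10.59 and 10.51 (knockout), and differed by −0.21 (−0.40 to −0.013), at an unadjusted p of 0.0396 and limma adjusted p = 0.909 (exact permutation p = 0.1). In neither gene was the other bright probe set as far apart, with −0.072 for Mcm6 and −0.083 for Mcm4. Mcm3 read 10.22, 10.32 and 10.08 (control) and 9.81, 10.14 and 10.03 (knockout). Its groups overlapped through knockout 2, above control 3, and the difference was −0.21 (−0.47 to 0.047). Its other probe sets gave −0.13, −0.17, −0.17 and, in the dimmest, 0.10.

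In their brightest probe sets the other subunits of the ring were less regular. Mcm2 was at 10.34, 10.40 and 10.22 in controls 1 to 3 and 9.91, 10.31 and 10.25 in knockouts 1 to 3, and apart from the low value of knockout 1 its knockouts lay in or next to the control range, with a difference of −0.17 (−0.45 to 0.12). Mcm5 and Mcm7 had their highest value in control 1, at 11.11, 10.89 and 10.71 (control) and 10.76, 10.94 and 10.74 (knockout) for Mcm5. For Mcm7 the values were 12.00, 11.87 and 11.61 (control) and 11.72, 11.81 and 11.60 (knockout). Control 3 was below knockout 2 in both, and the differences were −0.092 (−0.37 to 0.19) and −0.12 (−0.40 to 0.16). Other probe sets of Mcm5 gave −0.19 (−0.46 to 0.070) and, below the median level, −0.039. Those of Mcm7 gave −0.20, −0.14 and −0.062.

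The 5 genes that load the helicase in G1 also all had lower means, by −0.12 for Orc1, −0.14 for Orc2 and −0.10 for Orc6, subunits of the origin recognition complex, and −0.13 and −0.12 for the loading factors Cdc6 and Cdt1. Orc2 was the most even of them, at 8.47, 8.27 and 8.400 in controls 1 to 3 and 8.32, 8.12 and 8.26 in knockouts 1 to 3. Its difference within numbers 1, 2 and 3 was −0.15, −0.15 and −0.14, although knockout 1 lay above control 2, and the fit gave −0.14 (−0.36 to 0.074). Orc1 read 7.29, 6.99 and 6.98 (control) and 7.04, 6.95 and 6.92 (knockout), so that in this probe set its mean difference rested on control 1 while controls 2 and 3 lay beside the knockouts. A second probe set of Orc1 gave −0.24 (−0.56 to 0.087). It read 7.23, 6.85 and 6.76 (control) and 6.86, 6.61 and 6.64 (knockout), and only knockout 1 overlapped the controls. Cdt1, whose product is destroyed once S phase begins, varied more by replicate number than by genotype, with 10.02, 10.71 and 10.51 (control) and 9.62, 10.68 and 10.56 (knockout). Both number 1 arrays were below the other 4, as they were in a second probe set at 8.78 (control) and 8.41 (knockout) against 9.09 to 9.28 elsewhere, and the interval was the widest of the list (−0.82 to 0.57).

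Genes that activate the helicase had overlapping groups. Mcm10 was at 8.26, 8.02 and 7.82 in controls 1 to 3 and 7.88, 8.001 and 7.80 in knockouts 1 to 3, highest in control 1, with a difference of −0.14 (−0.43 to 0.15). Of the GINS subunits, Gins3 read 7.196, 7.09 and 7.08 (control) and 7.01, 7.12 and 7.04 (knockout) and differed by −0.065 (−0.25 to 0.12), and Gins1 and Gins2 differed by −0.048 and −0.091.

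Among 8 subunits of polymerases and primase, 6 had lower means and 2 higher, with a median of −0.024, the smallest shift of any role. Pola1 and Pold1, the catalytic subunits of polymerases alpha and delta, had the largest positive differences of the list, at 0.018 (−0.27 to 0.30) and 0.020 (−0.40 to 0.44). The other probe set gave −0.086 for Pold1 and, below the median level, 0.051 for Pola1. Pola1 was at 9.29, 8.93 and 9.003 in controls 1 to 3 and 9.25, 9.02 and 9.01 in knockouts 1 to 3, with both number 1 arrays high. Pold1 showed the reverse, at 8.36, 8.66 and 8.46 (control) and 8.11, 8.73 and 8.71 (knockout), with both number 1 arrays lowest. Pole, the catalytic subunit of the leading-strand polymerase epsilon, read 8.26, 8.403 and 8.16 (control) and 7.88, 8.35 and 8.12 (knockout), and Pola2, the second subunit of polymerase alpha, 9.17, 9.19 and 9.10 (control) and 8.78, 9.20 and 9.02 (knockout). In both knockout 1 was the lowest array, and they differed by −0.16 (−0.47 to 0.15) and −0.15 (−0.42 to 0.12). The primase subunits Prim1 (−0.062) and Prim2 (−0.030), the epsilon subunit Pole2 (−0.017) and the delta subunit Pold2 (−0.0074) complete the group.

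Pcna, the sliding clamp and a common marker of dividing cells, was at 13.20, 13.003 and 13.17 in controls 1 to 3 and 13.06, 13.11 and 13.18 in knockouts 1 to 3. Knockouts and controls covered nearly the same range, and the difference was −0.0094 (−0.21 to 0.20); at 13.1 the probe set is bright, with 14.8 the maximum over all probe sets, and steps of bright probe sets can be compressed. The clamp is loaded by the 5 Rfc subunits, of which Rfc5 read 9.93, 9.91 and 9.83 (control) and 9.60, 9.83 and 9.76 (knockout) and Rfc1 9.50, 9.33 and 9.04 (control) and 9.27, 9.13 and 9.03 (knockout). Rfc5 differed by −0.16 (−0.37 to 0.049), with knockout 2 just above control 3. Rfc1 differed by −0.15 (−0.45 to 0.16), and its control 3 lay among the knockouts. Rfc3 was the only member besides Pola1 and Pold1 with a positive difference, 0.014 (−0.25 to 0.28), at 9.83, 9.46 and 9.50 in controls 1 to 3 and 9.62, 9.55 and 9.65 in knockouts 1 to 3. Its other probe set gave −0.040. Rfc2 and Rfc4 differed by −0.041 and −0.018.

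The single-strand binding protein RPA and the enzymes that join lagging-strand fragments gave the same picture of small differences and overlapping groups. Rpa1 was at 11.07, 10.97 and 10.87 in controls 1 to 3 and 10.89, 10.97 and 10.86 in knockouts 1 to 3 and differed by −0.067 (−0.27 to 0.13). For Rpa2 the values were 9.89, 9.56 and 9.37 (control) and 9.44, 9.59 and 9.49 (knockout), with control 1 alone above the rest, and the difference was −0.10 (−0.42 to 0.22). Rpa3 differed by −0.062. The flap nuclease Fen1 read 11.00, 10.83 and 10.69 (control) and 10.70, 10.81 and 10.76 (knockout) and DNA ligase 1 (Lig1) 10.40, 10.55 and 10.28 (control) and 10.03, 10.38 and 10.27 (knockout). They differed by −0.082 (−0.31 to 0.15) and −0.18 (−0.46 to 0.095), Lig1 being lowest in knockout 1 and Fen1 highest in control 1. The other probe set of Fen1 gave −0.22 (−0.51 to 0.076).

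Nucleotide supply held the third gene without overlap. Tyms, thymidylate synthase, which makes dTMP, was at 6.83, 6.81 and 6.64 in controls 1 to 3 and 6.48, 6.57 and 6.53 in knockouts 1 to 3. The means were 6.76 ± 0.10 and 6.52 ± 0.042 (SD, n = 3), a difference of −0.24 (−0.43 to −0.038), at an unadjusted p of 0.0257 and limma adjusted p = 0.909 (exact permutation p = 0.1). This is the dimmest of the 38 brightest probe sets, and the other probe sets of the gene, all below the median level, gave −0.095, −0.11 and −0.049. Rrm2, the inducible subunit of ribonucleotide reductase, read 10.94, 11.16 and 11.05 (control) and 10.69, 11.14 and 11.01 (knockout), lowest in knockout 1, and differed by −0.11 (−0.41 to 0.20). Its partner Rrm1 differed by −0.093 and thymidine kinase Tk1 by −0.032. Other probe sets of Rrm1 gave −0.21 (−0.68 to 0.27) and, below the median level, −0.0049.

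Other probe sets of the same genes were read as a check that the sign did not hang on the choice. Of 47 further probe sets 39 had lower and 8 higher values in the knockout, and of the 32 above the median level 30 were lower. None had an unadjusted limma p under 0.05. With the mean of all probe sets of a gene, 36 of 38 genes had lower values but 0 reached an unadjusted p under 0.05, and with the second brightest probe set these counts were 35 and 0. In both checks the 9 genes with only 1 probe set kept that probe set.

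By array, the list lay highest in control 1 and lowest in knockout 1. The median deviation over the 38 genes was 0.16, 0.024 and −0.025 in controls 1 to 3 and −0.082, 0.0050 and −0.053 in knockouts 1 to 3, so knockout 2 was above control 3 and the genotypes overlapped. Control 1 was the highest array for 26 genes (68.4%), against 20.4% of all genes, and it was the lowest for none. These included all 6 genes of the clamp and its loader and all 3 of RPA. Knockout 1 was the lowest array for 14 genes (36.8%), against 23.9% of all genes, and the highest for none. The 14 included 4 of the 6 helicase subunits (Mcm2, Mcm3, Mcm4 and Mcm6). Among all genes above the median level, control 1 was the highest array for 22.1% and knockout 1 the lowest for 29.0%.

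**Figure D2:**
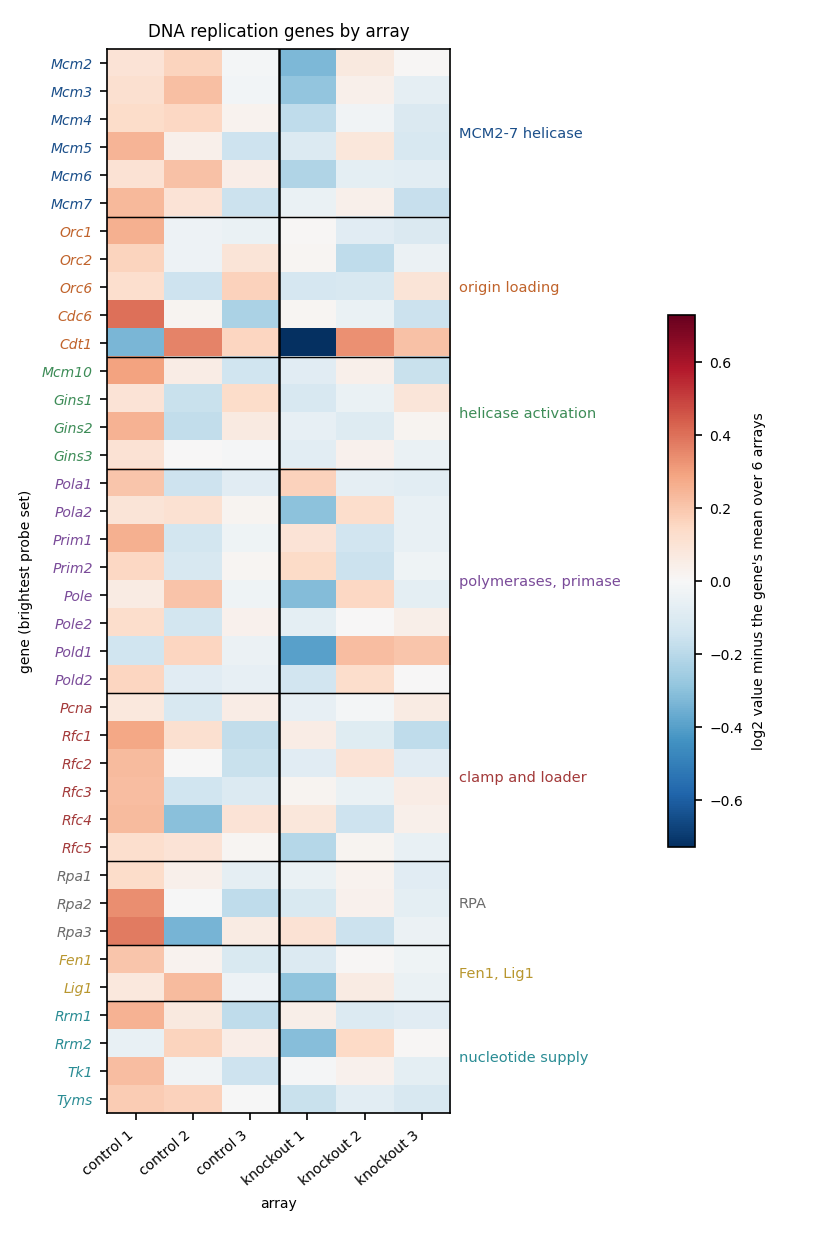
Deviation of each gene (rows, ordered and coloured by role) from its own mean over the 6 arrays (columns; the line separates control from knockout) on the log2 scale, red above and blue below. Control 1 is the reddest column, the highest array for 26 genes, and knockout 1 holds the deepest blues, with Cdt1 the most extreme at 9.62 against a mean of 10.41 in control.

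The labels number the samples but state no pairing, and like numbers were read as pairs from the data alone. In deviations from the group means, control 2 correlated more with knockout 3 (0.422) than with knockout 2 (0.359). Read as pairs, the difference within replicate numbers was concentrated in number 1, which set the list's highest array against its lowest. There all 38 genes were lower in the knockout, by a median of −0.28 and by between −0.0069 (Prim2) and −0.45 (Rpa2), against 53.4% of all genes. Within number 2, 21 of 38 were lower (median −0.012, all genes 44.8%), and within number 3, 23 of 38 (median −0.016, all genes 47.2%). Numbers 2 and 3 each set an array with low Y-linked values (3.12 in control 2, 3.15 in knockout 3) against an array with high values. In number 1 both were high (8.20 in control, 8.39 in knockout), so only number 1 was alike in this mark of sex. The part of sex in the counts within numbers was not tested. Lower in every one of the 3 numbers were 16 of the 38 genes (42.1%), against 17.6% of all genes, and higher in every one were 0. Among genes above the median level 22.8% were lower in every number, and 58.0%, 49.5% and 53.3% within numbers 1, 2 and 3. The 16 held 4 of the 6 helicase subunits, Mcm3, Mcm4, Mcm6 and Mcm7. Mcm6 differed by −0.32, −0.29 and −0.13 within numbers 1 to 3, Tyms by −0.35, −0.24 and −0.12, and Mcm4 by −0.32, −0.18 and −0.13.

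**Figure D3:**
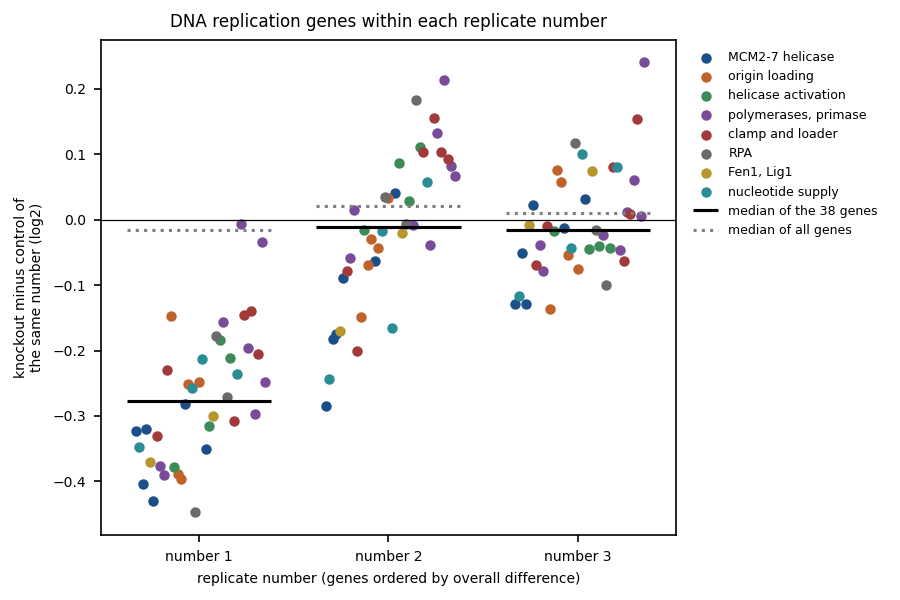
Knockout minus control of the same replicate number (vertical axis, log2) for the 38 genes, in columns for numbers 1, 2 and 3; solid lines are the medians of the 38 (−0.28, −0.012 and −0.016) and dotted lines those of all genes. All points of number 1 lie below 0, and those of numbers 2 and 3 lie on both sides.

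Without both number 1 arrays, 21 of 38 genes had lower values, with a median of −0.013, and 0 had an unadjusted limma p under 0.05; 43.9% of all genes were lower in that fit. Leaving out control 1 alone gave 22 genes and −0.016, and leaving out knockout 1 alone gave 31 genes and −0.065. The 3 genes without overlap kept their sign without both arrays, at −0.21 for Mcm6 (−0.44 to 0.028), −0.18 for Tyms (−0.42 to 0.059) and −0.15 for Mcm4 (−0.38 to 0.080), and none of them had an unadjusted limma p under 0.05 there. The 95% interval of a member reached a median of 0.27 to each side, a factor of 1.21, so the median difference of −0.095 was smaller than that interval resolves for a single gene.

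Other genes of the pathway were read from 6 lists of origin firing, fork, chromatin assembly, nucleotide, checkpoint and G1/S genes, none of them a member. Of 86 measured, 74 had lower and 12 higher values in the knockout, with a median of −0.11, and 0 passed the adjusted test. At an unadjusted limma p under 0.05, 6 were lower (6.98%) and 0 higher, against 1.91% and 3.17% of all genes. Genes above the median level gave 2.41% and 2.76%. Of all genes 47.6% had lower values, and of those above the median level 56.2% did. Lower values were found in 81, 60 and 61 of the 86 within numbers 1 to 3. Without both number 1 arrays 62 of 86 were lower, with a median of −0.067, and 3 of them at an unadjusted limma p under 0.05. The kinase that fires loaded origins had both subunits among these 6. Dbf4, its activator, was at 9.41, 9.27 and 9.33 in controls 1 to 3 and 9.09, 8.99 and 8.95 in knockouts 1 to 3, with no overlap and a difference of −0.33 (−0.52 to −0.13). Cdc7, the catalytic subunit, read 9.26, 9.18 and 9.02 (control) and 8.74, 9.01 and 8.88 (knockout) and differed by −0.28 (−0.52 to −0.034). Topbp1, which also acts at origins, differed by −0.24 (−0.42 to −0.051), also with no overlap, the nuclease Exo1 by −0.31 (−0.62 to −0.0052) and Tfdp1, the partner of E2F factors, by −0.21 (−0.40 to −0.012). The largest of all was Cdk2, the S phase kinase, at 9.82, 9.64 and 9.68 in controls 1 to 3 and 9.37, 9.22 and 9.18 in knockouts 1 to 3. All its knockouts were below all its controls, and the difference was −0.46 (−0.67 to −0.24), at unadjusted p = 0.00123 and limma adjusted p = 0.909.

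By list, lower values were found in 17 of 18 further origin genes (median −0.11), 14 of 19 fork and polymerase genes (−0.060), 9 of 10 chromatin assembly genes (−0.070; Hells −0.20, Rbbp4 −0.13, Uhrf1 −0.20), 9 of 12 nucleotide genes (−0.10; Ctps −0.17, Paics −0.17, Tk2 −0.17), 10 of 11 checkpoint genes (−0.12; Hus1 −0.14, Brca2 −0.17, Blm −0.12) and 15 of 16 G1/S regulators (−0.14; Ccna2 −0.16). The remaining fork genes named by rule, Atad5 and Wdhd1, differed by −0.18 and −0.19. In mitosis all 21 genes had lower values (median −0.13, with Nusap1 −0.28, Bub1 −0.26 and Ndc80 −0.21). At an unadjusted limma p under 0.05 there were 3 (14.3%), against 1.91% of all genes and 2.41% of those above the median level. Within numbers 1 to 3 lower values were found in 19, 16 and 12 of the 21, and without both number 1 arrays in 17, with a median of −0.039. In that fit lower values were found in 14 of 18 origin, 11 of 19 fork, 5 of 10 chromatin assembly, 7 of 12 nucleotide, 10 of 11 checkpoint and 15 of 16 G1/S genes. Inhibitors and brakes of the cycle gave 3 of 10 lower and a median of 0.077, and 2 of 10 lower without both number 1 arrays. Cdkn2b, a Cdk4/6 inhibitor, was at 6.74, 6.77 and 7.35 in controls 1 to 3 and 7.51, 7.50 and 7.30 in knockouts 1 to 3, and differed by 0.48 (0.089 to 0.88), with control 3 among the knockouts; Cdkn1a (p21) differed by 0.25 (−0.012 to 0.51) and Cdkn2a, at means of 3.86 and 4.07 far below the median level, by 0.22 (−0.028 to 0.46). Cdkn1c (p57), chosen after its values were seen, went the other way, at 12.42, 12.57 and 12.50 in controls 1 to 3 and 12.37, 12.09 and 12.42 in knockouts 1 to 3, with a difference of −0.20 (−0.45 to 0.051) and lower values in all 3 numbers.

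Markers of skin layers also varied between the arrays, and in bulk skin fewer cells of a type and less RNA per cell cannot be told apart. Suprabasal markers were higher in the knockout in 10 of 10 genes, and their mean level was 10.7 to 10.9 in control and 11.0 to 11.6 in knockout arrays. Their median deviation was −0.23, −0.22 and −0.065 in controls 1 to 3 and 0.43, 0.14 and 0.00059 in knockouts 1 to 3, highest in knockout 1, where the replication list was lowest. Between knockouts 2 and 3 both lists were higher in knockout 2, with 0.0050 against −0.053 for the replication list. Ivl, Cnfn and Lor, proteins of the cornified envelope, differed by 1.02, 1.25 and 0.56. Periderm markers were higher in 8 of 8 (mean level 9.17 to 9.37 and 9.66 to 10.7), and basal markers in 6 of 8 (10.3 to 10.9 and 10.5 to 11.0), with a median deviation of 0.061, 0.14 and −0.44 in controls 1 to 3 and 0.34, 0.20 and −0.25 in knockouts 1 to 3. Fibroblast markers were lower in 6 of 9 (12.2 to 12.7 and 11.9 to 12.7) and endothelial and pericyte markers in 7 of 9 (7.79 to 8.54 and 7.36 to 8.54). Of other cell types, mast cell markers were higher in 8 of 8 (mean level 7.93 to 8.404 in control and 8.53 to 8.71 in knockout arrays), melanocyte markers in 8 of 8 (7.59 to 7.72 and 7.78 to 8.08), macrophage markers in 1 of 8 (8.17 to 8.64 and 8.22 to 8.502) and erythroid markers in 3 of 6 (8.17 to 8.30 and 7.798 to 8.32). Without both number 1 arrays higher values were found in 10 of 10 suprabasal, 8 of 8 periderm, 6 of 8 basal, 8 of 8 mast cell, 7 of 8 melanocyte and 4 of 8 macrophage markers, and lower values in 2 of 9 fibroblast, 4 of 9 endothelial and pericyte, 3 of 6 erythroid and 8 of 9 muscle markers. Apart from a fit with the suprabasal mean as a covariate, given next, the part of these markers in the result was not tested.

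With the mean of the suprabasal markers as a covariate, 20 of 38 replication genes had lower values, with a median of −0.0040; 0 were lower and 1, Pold1, higher at an unadjusted limma p under 0.05 (0.54, 0.11 to 0.96). That mean itself differed between the genotypes in all 3 pairs of arrays and its groups did not overlap, so a part of the list tied to it and a part tied to genotype cannot be told apart here, and the part of tissue makeup in the result was not tested further. With the mean of Y-linked genes as a covariate, which was about 3.1 in control 2 and knockout 3 and 7.88 to 8.39 in the other arrays, 35 genes had lower values, with a median of −0.095.

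**Figure D4:**
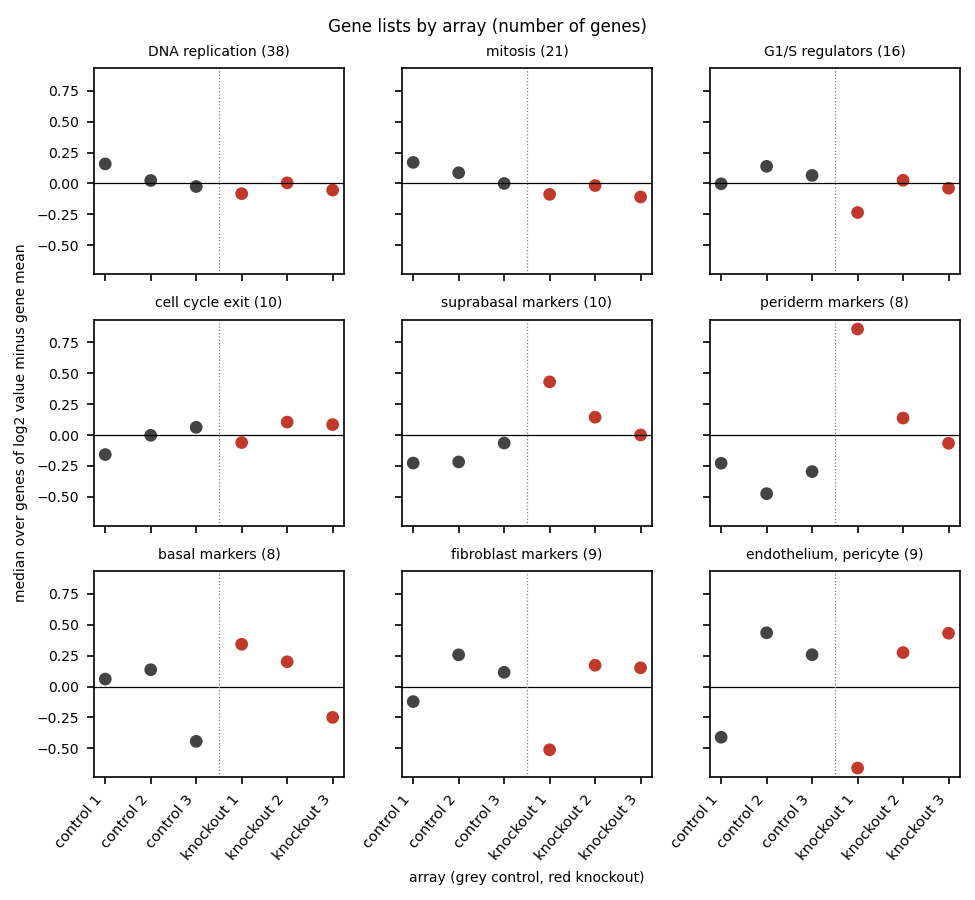
Median deviation of each gene list from its genes' own means (vertical axis, log2) on each array (horizontal axis; grey control, red knockout), with the number of genes in each title. The replication list runs from 0.16 in control 1 to −0.082 in knockout 1, while suprabasal markers are lowest in controls 1 and 2 and highest in knockout 1, at 0.43, and endothelial markers are low in both number 1 arrays.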

How the data were processed

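Total RNA was extracted with Trizol and RNeasy columns and labelled with biotin, per the labels' protocols. The authors summarised the probes of each set with RMA before depositing the values, per the submitters' processing notes, and these deposited values were read as log2. No source gives the version or the base of the logarithm; the range was 2.39 to 14.8 and array medians were 5.99 to 6.03. RMA makes arrays alike in distribution, so a shift of most genes would not show. The precision is limited by the number of arrays. P-values measure the spread between these samples.

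Of 45101 rows, 64 array controls were left out and 45037 tested with no filter. By the platform annotation 34945 had 1 gene symbol, 932 several and 9160 none; symbols were updated by Entrez identifier to the GRCm38.p6 gene table (34741 matched), and probe sets with 1 symbol were named. Knockout minus control was estimated over all 6 arrays by limma (version 3.58.1, R 4.3.3; eBayes after lmFit, without covariates, two-sided), with p-values adjusted by Benjamini-Hochberg over all probe sets, threshold 0.05, with 95% intervals. The fitting step was tested on simulated data. Single values used an exact permutation test. Lists were described by counts and medians, with no test.

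The members and lists were chosen with earlier results of these data known. Values on every array were given for the 8 members with the smallest p, the 3 with the largest positive differences, the 2 of each role with the smallest p, Pcna and Mcm2 to Mcm7; of each related list the 3 genes with the smallest p were named. Col1a1 was chosen after its values were seen.

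The labels number the samples of each group from 1 to 3. Arrays of like number had deviations from their group means with correlations of 0.568, 0.359 and 0.124, each above 0.1, so the numbers were treated as pairing the samples. This rests on the data, and control 2 correlated more with knockout 3 (0.422). Control 2 and knockout 3 were also the arrays with low Y-linked values, 3.12 and 3.15. Alternatives were the replicate block, a variance trend, a filter on low values, 2 scalings, array weights, 2 covariates, other probe set choices, another threshold and arrays left out; leaving the number 1 arrays out of the counts over related and marker lists was added after seeing the data. Plots used matplotlib 3.10.9 (Python 3.11.15).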

Additional observations from a re-analysis of the deposited data

How the results depend on the processing

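No member passed the adjusted limma threshold under any of the alternatives run, and the 24 named members kept their sign in 411 of 456 comparisons; the other 45 were sign changes of differences that passed in no fit, most often for Pcna, Pold1 and Rfc3 (7 each). The replicate block called 3 probe sets in place of 0, none of them a member, and changed no other call; the smallest adjusted p of a member was 0.344 there. Between 29 and 36 members had lower values under the other settings with all 6 arrays, except with the suprabasal covariate, where the count was 20, the median −0.0040 and the number lower at an unadjusted p under 0.05 was 0, while 1 member, Pold1, was higher at that level (0.54, adjusted p 0.852). The number lower at that level was also 0 with the mean of all probe sets and with the second brightest. Leaving out arrays, singly or by replicate number, moved the count of lower members between 21 and 38, the median between −0.15 and −0.013 and the number lower at an unadjusted p under 0.05 between 0 and 3. The lowest counts came without control 1 (22) and without both number 1 arrays (21); leaving out numbers 2 or 3 gave 38 and 36. The SD of the list's median between replicates was 0.074. Where arrays of 1 number were left out, 2 remained in each group. At an adjusted p under 0.1 still 0 probe sets passed.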
